A study of Mus musculus with 8 samples.

Results

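The 33 genes described here encode the enzymes and regulators of sterol and fatty acid synthesis. They were chosen by symbol, and each has a row among the 47729 genes of the deposited table of estimated counts: 5 regulators of the pathway, 19 genes of the sterol arm and 9 genes of the fatty acid arm. They were measured by bulk sequencing of polyA RNA in gamma delta (γδ) T cells, lymphocytes whose antigen receptor is built from a γ and a δ chain, sorted from the visceral fat of C57BL/6 mice. Of the 8 samples, 4 came from mice fed a ketogenic diet (KD, low in carbohydrate and high in fat) for 1 week and 4 from mice fed chow, labelled control. All mice were of the same strain, and the labels name no mutation, transgene or drug. Whether each sample came from 1 mouse or from pooled mice is not stated, so the p-values describe the scatter of these samples, some of which may be technical.

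Animal cells make cholesterol from acetyl-CoA through mevalonate, farnesyl diphosphate, squalene and lanosterol. Fatty acids are made from the same acetyl-CoA, which is released from citrate in the cytosol, carboxylated, built into a chain, then elongated and desaturated. Sterol regulatory element-binding proteins (SREBPs) switch on the genes of both arms. They are held in the endoplasmic reticulum by SCAP and the INSIG proteins while sterols are plentiful, and are carried to the Golgi for cleavage when sterols run low. Activated T cells are known to raise both arms as they grow and divide, and resting T cells keep them low.

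The libraries held between 19796126 and 26572328 estimated counts in the KD samples and between 23940838 and 31926441 in the chow samples. Levels are given as CPM (the count scaled to a fixed library total) unless FPKM (the deposited value, which is also scaled to transcript length) is named. Transcripts that define the sorted cells were plentiful in every library, with Trdc, the constant gene segment of the δ chain, between 4004 and 4760 CPM in KD samples and between 3952 and 4176 CPM in chow samples. Transcripts of other fat-tissue cells varied widely between libraries. The summed level of 18 stromal and mesothelial markers was 76.2, 728, 603 and 717 CPM in KD replicates 1 to 4, against 84.8, 56.0, 105 and 582 CPM in chow replicates 1 to 4. In bulk RNA, fewer cells of a type and less RNA per cell cannot be told apart.

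None of the 32 member genes with enough counts to be tested differed between the diets at an adjusted p under 0.05 by edgeR's quasi-likelihood test with Benjamini-Hochberg adjustment. Over all 13397 genes tested, 0.508% passed that threshold, 44 higher and 24 lower in KD samples. At an unadjusted p under 0.05 there were 6 member genes, 5 of them lower in KD samples (Insig1, Fdft1, Hsd17b7, Sc5d and Acaca) and 1 higher (Scd1). Of all tested genes 8.64% reached that level, 4.16% lower and 4.48% higher. A negative log2 fold change (KD over chow) was found for 21 of the 32 members, against 49.1% of all tested genes. The median log2 fold change was -0.09 over the 5 regulators, -0.27 over the 19 sterol genes and -0.12 over the 8 tested fatty acid genes, against 0.0065 over all tested genes. Each median moved with single libraries: the sterol median was -0.12 without KD replicate 1, without chow replicate 3 it was 0.0018 and the fatty acid median 0.00021, and without chow replicate 4 the regulator median was -0.0021. Without chow replicate 3 the number of members at an unadjusted p under 0.05 was 3. The share of all genes at that level was not computed for this setting. At the adjusted threshold 18 of all genes were then higher and 3 lower. With the stromal marker level as a covariate the medians were -0.40, -0.50 and -0.35. That level was higher in KD replicates 2 to 4 than in every chow library. The shares of stromal level and diet in these medians can therefore not be told apart. No test was made over the list. With DESeq2, and with limma on log2(FPKM + 1), 1 member passed the adjusted threshold, Hsd17b7 in both cases. These settings also called more of all tested genes: 160 higher and 132 lower with DESeq2, and 82 and 44 with limma.

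**Figure D1:**
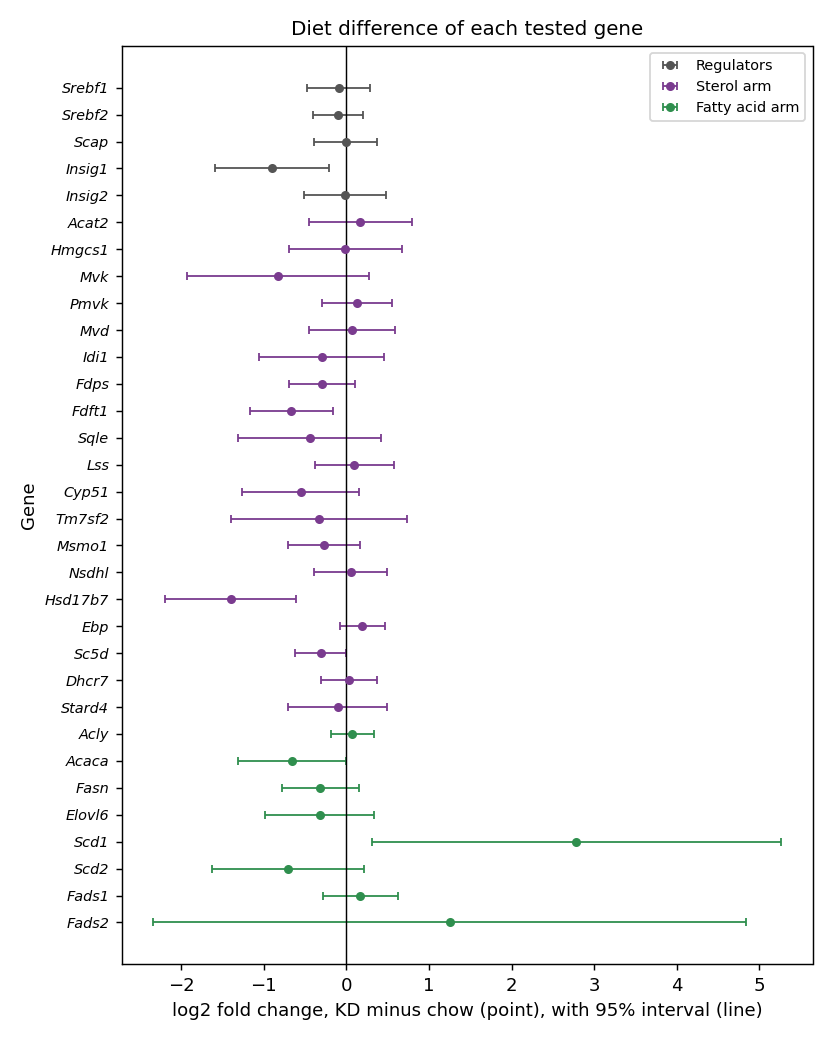
Log2 fold change in CPM (KD over chow, x axis) of the 32 tested member genes, grouped by arm, with 95% confidence intervals derived from edgeR's F statistics (4 KD and 4 chow samples). Hsd17b7 lies furthest to the left at -1.40 and Scd1 furthest to the right at 2.78 with the widest interval but one, and no gene passed an adjusted p of 0.05.

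Hsd17b7 had the lowest p of the 33 genes. It encodes the 3-ketosteroid reductase that removes the ketone left after the methyl groups of lanosterol are stripped off, a late step of cholesterol synthesis (chr1:169949535-169969241, minus strand, GRCm38). Its level was 9.05, 27.4, 8.49 and 16.9 CPM in KD replicates 1 to 4, against 42.9, 30.2, 47.0 and 43.9 CPM in chow replicates 1 to 4. All 4 KD libraries lay below all 4 chow libraries, and the gap between the highest KD library and the lowest chow library was narrow. It was the only member whose diets did not overlap, where 6.05% of all tested genes did not overlap, 2.75% of all genes being lower in KD samples and 3.30% higher. The means were 15.5 ± 8.85 CPM in KD samples and 41.0 ± 7.43 CPM in chow samples (SD, n = 4 each). The log2 fold change was -1.40 (SE 0.36, 95% confidence interval -2.20 to -0.60), with an adjusted p of 0.184 by edgeR's quasi-likelihood test and 0.00507 by DESeq2. Over all tested genes DESeq2 called 160 higher and 132 lower, against 44 and 24 by edgeR. Within the KD samples the level of Hsd17b7 spanned 3.23-fold, with replicates 1 and 3 lowest. The length per transcript implied by its count and FPKM also varied, between 2.18 kb in KD replicate 3 and 4.03 kb in KD replicate 1, so its FPKM and CPM did not move in step.

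Insig1 was the regulator with the largest difference in level. INSIG1 anchors SCAP with its SREBP cargo in the endoplasmic reticulum, and its own gene is a classic SREBP target (chr5:28071363-28078662, plus strand, GRCm38). Its level was 12.7, 40.2, 26.7 and 30.6 CPM in KD replicates 1 to 4, against 50.3, 37.1, 67.2 and 51.5 CPM in chow replicates 1 to 4. KD replicate 1 was lowest of all libraries and chow replicate 3 highest, and the diets overlapped only through KD replicate 2, which lay above chow replicate 2. The means were 27.5 ± 11.4 CPM in KD samples and 51.5 ± 12.3 CPM in chow samples (SD, n = 4 each), a log2 fold change of -0.90 (SE 0.31, 95% confidence interval -1.60 to -0.21) with an adjusted p of 0.404 by edgeR.

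**Figure D2:**
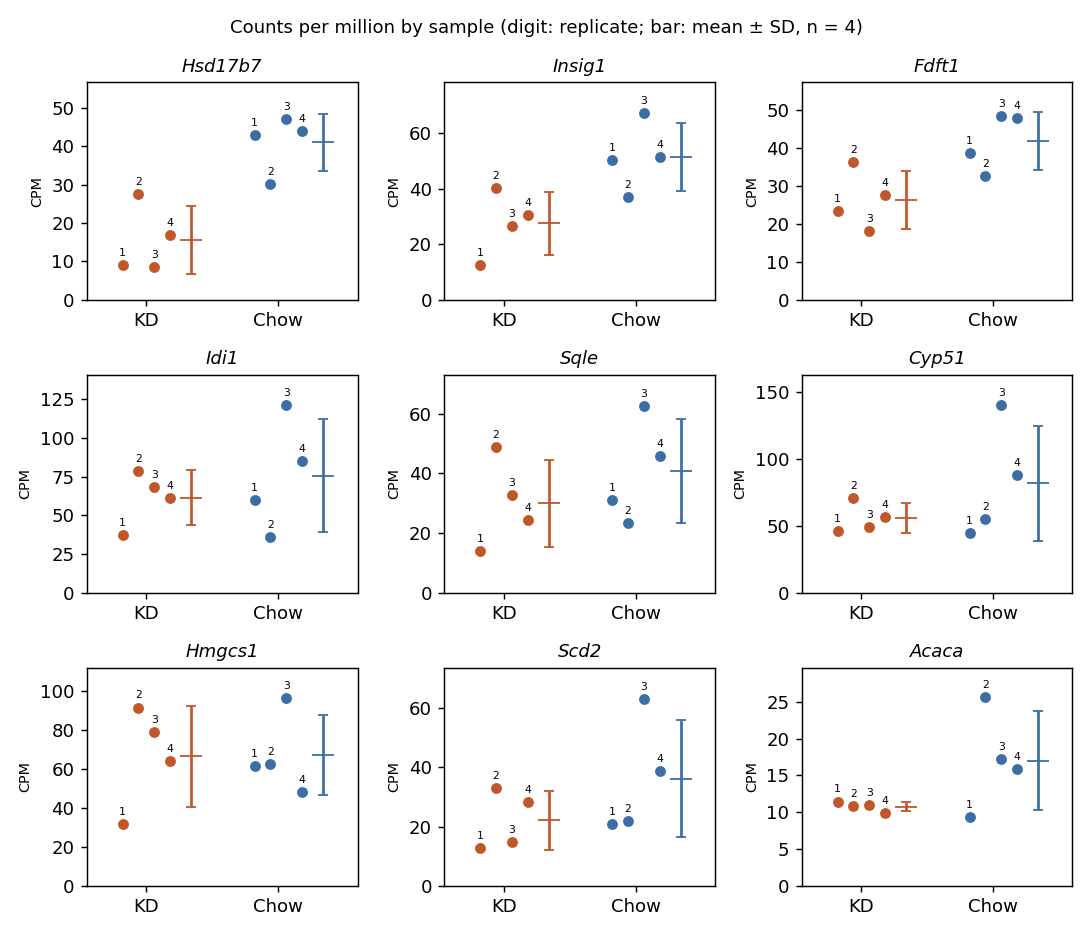
Level in CPM (y axis) in each KD library (left) and chow library (right) of Hsd17b7, Insig1, Fdft1, Idi1, Sqle, Cyp51, Hmgcs1, Scd2 and Acaca, with a point for each library numbered by replicate and bars for the mean and SD (n = 4 each). Hsd17b7 does not overlap between the diets, with 8.49 to 27.4 CPM in KD samples and 30.2 to 47.0 CPM in chow samples, and each of the other 8 genes overlaps.

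The promoter windows of Hsd17b7 and Insig1 are printed here because these members had the most negative log2 fold changes, beside those of Hmgcs1 and Idi1, sterol genes whose diets overlapped widely. Each window runs from 250 bases before to 50 bases after the start of the RefSeq gene, 5′ to 3′ on the strand of the gene (RefSeq, GRCm38.p6). Capitals mark the letters CCAAT on either strand (read as ATTGG where the match is on the other strand), the box bound by NF-Y, a factor known to work with SREBPs. In Hmgcs1 they also mark TCACNCCAC, a form of the sterol regulatory element, found there at position -137 counted from the start. The windows lie at chr1:169969156-169969455 (minus strand), chr5:28071162-28071461 (plus), chr13:119690101-119690400 (plus) and chr13:8885356-8885655 (plus).
Hsd17b7: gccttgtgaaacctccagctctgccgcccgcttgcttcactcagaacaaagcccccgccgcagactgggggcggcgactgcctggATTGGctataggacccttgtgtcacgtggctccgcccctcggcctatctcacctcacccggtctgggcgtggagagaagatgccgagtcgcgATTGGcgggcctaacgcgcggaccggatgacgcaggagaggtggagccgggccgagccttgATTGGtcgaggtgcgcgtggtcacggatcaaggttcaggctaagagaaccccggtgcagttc
Insig1: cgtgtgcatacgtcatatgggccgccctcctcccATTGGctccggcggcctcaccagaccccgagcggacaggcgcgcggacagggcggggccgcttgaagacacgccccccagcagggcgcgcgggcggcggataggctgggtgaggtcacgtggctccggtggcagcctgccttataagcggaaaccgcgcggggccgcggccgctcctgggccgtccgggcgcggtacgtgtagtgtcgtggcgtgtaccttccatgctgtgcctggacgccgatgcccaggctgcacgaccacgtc
Hmgcs1: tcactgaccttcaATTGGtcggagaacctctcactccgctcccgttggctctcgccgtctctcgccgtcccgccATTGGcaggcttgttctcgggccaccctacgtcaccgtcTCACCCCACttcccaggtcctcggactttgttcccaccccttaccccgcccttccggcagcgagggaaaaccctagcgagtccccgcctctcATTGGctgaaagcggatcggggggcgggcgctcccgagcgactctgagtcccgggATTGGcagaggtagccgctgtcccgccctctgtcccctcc
Idi1: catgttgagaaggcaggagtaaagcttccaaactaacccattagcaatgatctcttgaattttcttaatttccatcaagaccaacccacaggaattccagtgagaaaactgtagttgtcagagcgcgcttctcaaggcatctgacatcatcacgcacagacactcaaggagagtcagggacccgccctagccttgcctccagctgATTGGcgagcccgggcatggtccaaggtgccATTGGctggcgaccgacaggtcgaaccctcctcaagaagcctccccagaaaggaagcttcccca
All 4 windows hold CCAAT: 3 matches in Hsd17b7, 1 in Insig1, 4 in Hmgcs1 and 2 in Idi1. A window was found for 26 of the 33 members. CCAAT, searched on both strands, was present in 13 of 15 sterol windows (86.7%), 4 of 5 regulator windows (80.0%) and 2 of 6 fatty acid windows (33.3%), against 38.0% of 27025 promoters of the same length. GGGCGG, the box bound by Sp1, also searched on both strands, was present in 14 of 15 sterol windows (93.3%), 3 of 5 regulator windows and 3 of 6 fatty acid windows, against 35.9% of all promoters. TCACNCCAC was present in 1 of 15 sterol windows, that of Hmgcs1, against 1.22% of all promoters. Matches of these motifs did not overlap one another in the 4 printed windows. A match is a run of letters and does not show binding. The 27025 promoters were not limited to genes tested here, whereas 32 of the 33 members were tested. The shares were not compared with those of other tested genes.

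The other 4 regulators lay close together in the diets. Srebf1 encodes SREBP1, the form that drives mainly the fatty acid arm, and stood at 114, 142, 131 and 82.2 CPM in KD replicates 1 to 4, against 99.97, 142, 131 and 127 CPM in chow replicates 1 to 4. Srebf2 encodes SREBP2, which drives mainly the sterol arm, and stood at 160.4, 223, 203 and 168 CPM in KD replicates 1 to 4, against 177, 183, 206 and 242 CPM in chow replicates 1 to 4. The diets overlapped almost completely for both factors. The log2 fold change was -0.09 (95% confidence interval -0.47 to 0.29) for Srebf1 and -0.10 (-0.40 to 0.20) for Srebf2, with adjusted p of 0.949 and 0.917 by edgeR. Scap, the escort of the SREBPs, averaged 75.2 ± 12.7 CPM in KD samples and 75.6 ± 14.5 CPM in chow samples, a log2 fold change of -0.01 (95% confidence interval -0.39 to 0.37). Insig2, the second anchor protein, averaged 39.5 ± 9.68 CPM in KD samples and 40.0 ± 9.76 CPM in chow samples, with a log2 fold change of -0.02 (95% confidence interval -0.51 to 0.47). Of the regulators, Insig1 was thus the gene whose interval lay wholly below 0. The exons of Srebf1 and of Scap share 109 and 985 bases with a tested gene on the opposite strand (Rai1 and 5830462I19Rik), and the sources used here do not say whether strand was used in counting.

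The genes of the mevalonate stretch, from acetyl-CoA to farnesyl diphosphate, overlapped between the diets. Acat2 encodes the thiolase that joins acetyl-CoA units, and its level was 35.4, 29.1, 35.6 and 31.4 CPM in KD replicates 1 to 4, against 20.2, 22.6, 50.5 and 23.7 CPM in chow replicates 1 to 4. Chow replicate 3 stood above all KD libraries and the other 3 chow libraries stood below them. Hmgcs1 encodes the cytosolic HMG-CoA synthase and stood at 31.6, 91.7, 79.3 and 64.2 CPM in KD replicates 1 to 4, against 61.8, 62.7, 96.7 and 48.3 CPM in chow replicates 1 to 4. KD replicate 1 was the lowest and chow replicate 3 the highest of the 8, while the means of 66.7 ± 26.0 CPM in KD samples and 67.3 ± 20.7 CPM in chow samples were nearly equal. The 95% confidence interval of the log2 fold change of Hmgcs1, -0.70 to 0.67, was wide.

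Mvk encodes mevalonate kinase and stood at 10.1, 9.03, 2.22 and 3.10 CPM in KD replicates 1 to 4, against 15.5, 10.6, 8.59 and 8.71 CPM in chow replicates 1 to 4. KD replicates 3 and 4 lay below every chow library, while KD replicates 1 and 2 lay among them. Its log2 fold change was -0.82 (SE 0.50), with an adjusted p of 0.712 by edgeR. Phosphomevalonate kinase (Pmvk) averaged 18.6 ± 2.29 CPM in KD samples and 17.0 ± 2.52 CPM in chow samples, and mevalonate diphosphate decarboxylase (Mvd) averaged 31.7 ± 9.94 CPM in KD samples and 30.3 ± 3.48 CPM in chow samples. Idi1 encodes the isomerase that makes the reactive isoprenoid unit, and stood at 37.3, 78.8, 68.3 and 61.3 CPM in KD replicates 1 to 4, against 59.8, 36.0, 121 and 85.2 CPM in chow replicates 1 to 4. The chow libraries alone spanned 3.37-fold and enclosed all KD libraries. Fdps, the farnesyl diphosphate synthase gene, averaged 59.5 ± 10.4 CPM in KD samples and 72.9 ± 15.7 CPM in chow samples, a log2 fold change of -0.29 (95% confidence interval -0.69 to 0.11). None of these genes had an unadjusted p under 0.05.

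At squalene, where the sterol branch leaves the isoprenoid pathway, Fdft1 was the gene with the clearest difference. It encodes squalene synthase, the enzyme that commits farnesyl diphosphate to sterols (chr14:63145150-63179578, minus strand, GRCm38). Its level was 23.3, 36.3, 18.2 and 27.6 CPM in KD replicates 1 to 4, against 38.6, 32.5, 48.4 and 48.0 CPM in chow replicates 1 to 4. KD replicate 2 lay above chow replicate 2, and the other 3 KD libraries lay below every chow library. The means were 26.4 ± 7.66 CPM in KD samples and 41.9 ± 7.69 CPM in chow samples (SD, n = 4 each), with a log2 fold change of -0.67 (SE 0.23, 95% confidence interval -1.17 to -0.16) and an adjusted p of 0.396 by edgeR. The exons of Fdft1 share 774 bases with those of Ctsb on the opposite strand. Sqle encodes squalene epoxidase, a slow oxygen-requiring step, and stood at 14.1, 48.7, 32.8 and 24.3 CPM in KD replicates 1 to 4, against 30.9, 23.4, 62.7 and 46.0 CPM in chow replicates 1 to 4. It spanned 3.45-fold within KD samples and 2.68-fold within chow samples, and the diets overlapped. Lanosterol synthase (Lss), which closes the rings, averaged 23.9 ± 4.13 CPM in KD samples and 22.4 ± 4.78 CPM in chow samples.

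From lanosterol to cholesterol most genes overlapped between the diets. Cyp51 encodes the lanosterol demethylase and stood at 46.0, 71.1, 49.1 and 56.8 CPM in KD replicates 1 to 4, against 44.8, 54.8, 140.0 and 87.8 CPM in chow replicates 1 to 4. Chow replicates 3 and 4 stood above all KD libraries, and chow replicate 1 stood below them. Its log2 fold change was -0.55 (SE 0.32), with an adjusted p of 0.697 by edgeR, and its exons share 166 bases with those of Akap9 on the opposite strand. Tm7sf2, a sterol reductase gene, had few counts, at 3.29 ± 0.83 CPM in KD samples and 4.13 ± 1.66 CPM in chow samples, and shares 532 exon bases with Vps51 on the same strand. Msmo1 encodes the methylsterol oxidase that starts removal of the C4 methyl groups, and Nsdhl the dehydrogenase that follows it. Msmo1 averaged 69.1 ± 6.22 CPM in KD samples and 83.3 ± 26.0 CPM in chow samples, and Nsdhl 22.6 ± 3.10 CPM in KD samples and 21.8 ± 4.30 CPM in chow samples. The log2 fold change was -0.27 (SE 0.20) for Msmo1 and 0.05 (SE 0.20) for Nsdhl, beside -1.40 for Hsd17b7, which acts with them, and the difference between these genes was not tested.

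Among the genes of the last steps of the sterol arm, Ebp and Dhcr7 lay close in the diets. Sc5d had an unadjusted p just under 0.05 by edgeR, with a lower level in KD samples. Ebp, Sc5d and Dhcr7 had narrow intervals. Ebp encodes the sterol isomerase and averaged 100.6 ± 6.44 CPM in KD samples and 88.0 ± 13.2 CPM in chow samples, a log2 fold change of 0.19 (95% confidence interval -0.08 to 0.47). Sc5d encodes the lathosterol desaturase and stood at 81.5, 101, 97.1 and 100.05 CPM in KD replicates 1 to 4, against 87.0, 126, 130.04 and 128 CPM in chow replicates 1 to 4. Chow replicate 1 lay among the KD libraries and the other 3 chow libraries above all of them. Sc5d had a log2 fold change of -0.31 (SE 0.14), with an adjusted p of 0.577 by edgeR. Dhcr7, whose product makes cholesterol from its immediate precursor, averaged 40.4 ± 4.72 CPM in KD samples and 39.6 ± 5.54 CPM in chow samples. Stard4, a carrier of sterols between membranes and itself an SREBP2 target, averaged 34.5 ± 5.84 CPM in KD samples and 37.1 ± 14.4 CPM in chow samples. For Dhcr7 the 95% confidence interval of the log2 fold change was -0.31 to 0.37.

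**Figure D3:**
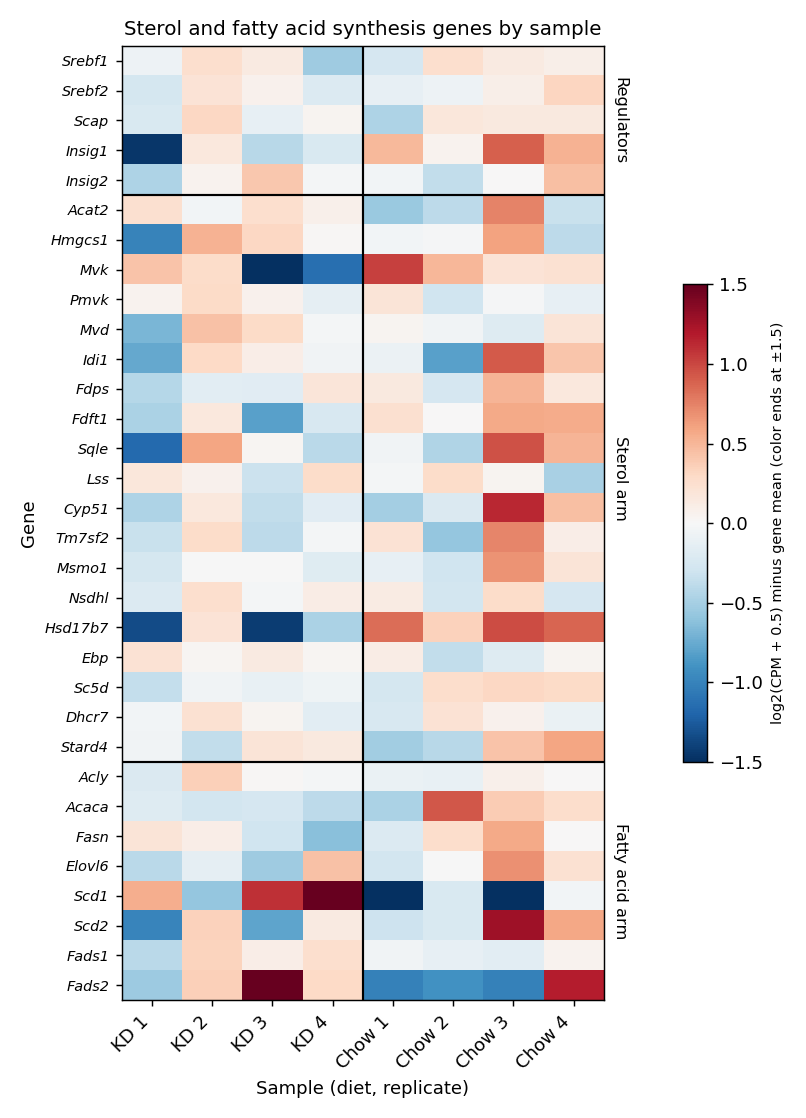
Level of the 32 tested member genes (rows, by arm) in 4 KD libraries (left) and 4 chow libraries (right), as log2(CPM + 0.5) minus the gene's mean over the 8 libraries, with red for above and blue for below that mean. Chow replicate 3 is the highest of the 8 in 12 of 19 sterol genes.

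Within each diet the sterol genes varied more between libraries than the median gene, and often in the same libraries. Chow replicate 3 was the highest of the 8 libraries in 12 of the 19 sterol genes, while it was the highest in 9.91% of all tested genes. Among the 4 KD libraries, replicate 2 was highest in 12 of the 19, against 22.7% of all tested genes. Replicate 1 was lowest among the KD libraries in 9 of the 19, against 28.0% of all tested genes. Among the chow libraries, replicate 2 was lowest in 10 of the 19, against 29.7% of all tested genes. The summed level of the sterol arm was 664, 912, 805 and 795 CPM in KD replicates 1 to 4, against 803, 749.6, 1187 and 952 CPM in chow replicates 1 to 4. Chow replicates 3 and 4 were above all KD libraries and chow replicate 2 was below 3 of them. Among the 17 sterol genes that averaged at least 10 CPM, the median ratio of the highest to the lowest library was 1.52 within KD samples and 1.71 within chow samples, against 1.44 and 1.41 over 8633 tested genes at that level. Within chow samples 6 of the 17 genes (35.3%) spanned 2-fold or more, against 14.1% of all such genes, and within KD samples 5 (29.4%) did, against 14.4%. Of all 19, the genes with the widest spans in chow samples were Idi1, Cyp51, Tm7sf2, Sqle and Acat2. The variation was not particular to the sterol arm. Over the 6 fatty acid genes that averaged at least 10 CPM, the median ratio was 1.73 within KD samples and 1.85 within chow samples. Over the 5 regulators it was 1.73 and 1.56. KD replicate 2 was the highest KD library in 4 of the 5 regulators.

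In the fatty acid arm the abundant genes overlapped between the diets. Acly encodes ATP citrate lyase, which releases acetyl-CoA from citrate, and stood at 236, 353, 278 and 269.7 CPM in KD replicates 1 to 4, against 256, 256, 291 and 278 CPM in chow replicates 1 to 4. KD replicates 1 and 2 were the lowest and the highest of the 8, and the log2 fold change was 0.07 (95% confidence interval -0.19 to 0.33). Acaca encodes acetyl-CoA carboxylase, the committed step, and stood at 11.4, 10.8, 10.9 and 9.86 CPM in KD replicates 1 to 4, against 9.32, 25.6, 17.3 and 15.9 CPM in chow replicates 1 to 4. The KD libraries were close to each other, chow replicate 1 lay just below them and the other 3 chow libraries lay above. Acaca had a log2 fold change of -0.66 (SE 0.29, 95% confidence interval -1.31 to -0.01), with an adjusted p of 0.567 by edgeR. Fasn, the fatty acid synthase gene, averaged 93.7 ± 23.6 CPM in KD samples and 117 ± 27.6 CPM in chow samples. Elovl6, which encodes the elongase of palmitate, averaged 13.2 ± 4.37 CPM in KD samples and 16.5 ± 4.97 CPM in chow samples. The log2 fold change was -0.31 (SE 0.21) for Fasn and -0.32 (SE 0.30) for Elovl6, both within the spread between libraries.

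The desaturase genes differed in how much of them these cells held. Scd2 encodes the stearoyl-CoA desaturase that was the more abundant of the pair per length (4.12 ± 1.85 FPKM in KD samples and 6.68 ± 3.62 FPKM in chow samples), and stood at 12.7, 32.9, 14.7 and 28.3 CPM in KD replicates 1 to 4, against 20.7, 21.9, 63.1 and 38.9 CPM in chow replicates 1 to 4. Chow replicates 3 and 4 lay above all KD libraries, KD replicates 1 and 3 lay below all chow libraries, and the others were mixed. Scd2 had a log2 fold change of -0.71 (SE 0.42), with an adjusted p of 0.705 by edgeR. Fads1, the gene of the fatty acid desaturase that acts on polyunsaturated chains, averaged 19.7 ± 4.21 CPM in KD samples and 17.5 ± 1.21 CPM in chow samples, a log2 fold change of 0.17 (SE 0.21).

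Scd1, Fads2 and Me1 were the least abundant members per length, and varied widely between libraries. Scd1 encodes the main stearoyl-CoA desaturase of fat and liver and stood at 2.56, 0.91, 3.97 and 13.9 CPM in KD replicates 1 to 4, against 0.085, 1.296, 0.13 and 1.55 CPM in chow replicates 1 to 4. KD replicate 4 was the highest, and KD replicate 2 lay below chow replicates 2 and 4. Scd1 had a log2 fold change of 2.78 (SE 1.115, 95% confidence interval 0.31 to 5.26), with an adjusted p of 0.514 by edgeR. Chow replicates 1 and 3 held 2.03 and 4.06 estimated counts of Scd1, and its counts were not whole in any of the 8 libraries, so some of its reads were shared out between similar genes. Fads2, the partner desaturase of Fads1, stood at 0.19, 0.79, 2.68 and 0.74 CPM in KD replicates 1 to 4, against 0, 0.037, 0 and 1.79 CPM in chow replicates 1 to 4. Chow replicates 1 and 3 had 0 counts, which allows up to 0.125 and 0.0947 CPM (3 counts, counting error only).

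Me1 encodes the cytosolic malic enzyme, a source of the NADPH that fatty acid synthesis uses. It stood at 0, 0.15, 6.55 and 5.23 CPM in KD replicates 1 to 4, against 2.51, 0, 0 and 0 CPM in chow replicates 1 to 4. It was present above 1 CPM in KD replicates 3 and 4 and chow replicate 1 only, and had too few counts to be tested. The 0 counts in KD replicate 1 and in chow replicates 2, 3 and 4 allow up to 0.143, 0.112, 0.0947 and 0.0994 CPM. Without a filter on low counts its log2 fold change was 2.24 (SE 1.999), with an adjusted p of 0.664 by edgeR.

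KD replicates 3 and 4, the libraries with most Scd1 and Me1, also held most adipocyte and endothelial marker RNA. The summed level of 12 adipocyte markers was 4.34, 9.07, 248 and 431 CPM in KD replicates 1 to 4, against 37.3, 3.33, 10.1 and 34.4 CPM in chow replicates 1 to 4. Fabp4, a fatty acid carrier also made by endothelial cells and macrophages, made up most of it, at 4.19, 5.01, 216 and 386 CPM in KD replicates 1 to 4, against 33.03, 2.88, 9.12 and 17.7 CPM in chow replicates 1 to 4. Adipoq was at 0 in all libraries but KD replicate 4 (0.83 CPM) and Plin1 in all but chow replicate 4 (0.50 CPM), and between 5 and 9 of the 12 markers were at 0 in each library. The summed level of 12 endothelial markers was 51.9, 60.5, 295 and 547 CPM in KD replicates 1 to 4, against 131, 57.4, 53.2 and 62.2 CPM in chow replicates 1 to 4. KD replicates 3 and 4 were highest in both sums and chow replicate 1 was the highest chow library, as for Me1. Scd1 followed the sums less closely. It was lowest of all libraries in chow replicate 1 (0.085 CPM). KD replicate 1, with the lowest endothelial sum, had 2.56 CPM of Scd1, more than any chow library. The part of these cells' RNA in the levels of Scd1, Fads2 and Me1 was not tested.

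**Figure D4:**
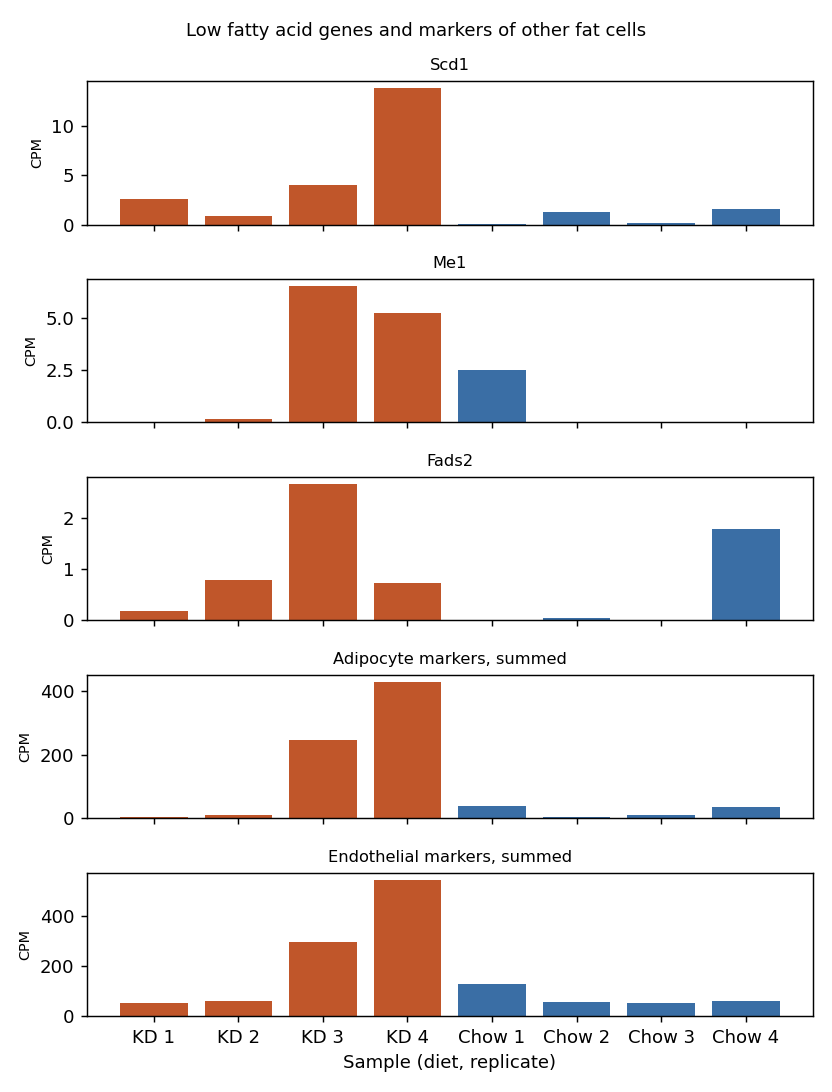
CPM (bars, y axes from 0) of Scd1, Me1 and Fads2 and summed CPM of the adipocyte and endothelial marker lists in each KD library (left) and each chow library (right). KD replicates 3 and 4 hold the highest Me1 (6.55 and 5.23 CPM) and the highest summed adipocyte markers (248 and 431 CPM).

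Per length, the members covered a wide range of levels in these cells. Ebp was the highest at 115 ± 10.01 FPKM in KD samples and 99.0 ± 15.2 FPKM in chow samples, followed by Acly at 70.2 ± 12.2 FPKM in KD samples and 65.6 ± 3.38 FPKM in chow samples. Ebp was above Acly in each of the 8 libraries. Fdps, Srebf1, Sc5d, Msmo1 and Srebf2 followed, with means between 38.3 and 49.5 FPKM in KD samples and between 40.9 and 61.6 FPKM in chow samples. Neighbours in that order overlapped, as did Acly and Fdps in both diets. The mean over all libraries was at least 20 FPKM for 12 of the 33 members. Acaca, the committed step of fatty acid synthesis, was low for its length at 1.598 ± 0.0995 FPKM in KD samples and 2.54 ± 1.05 FPKM in chow samples. Scd1, Me1 and Fads2 were the 3 members with a mean under 1 FPKM over the 8 libraries.

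**Figure D5:**
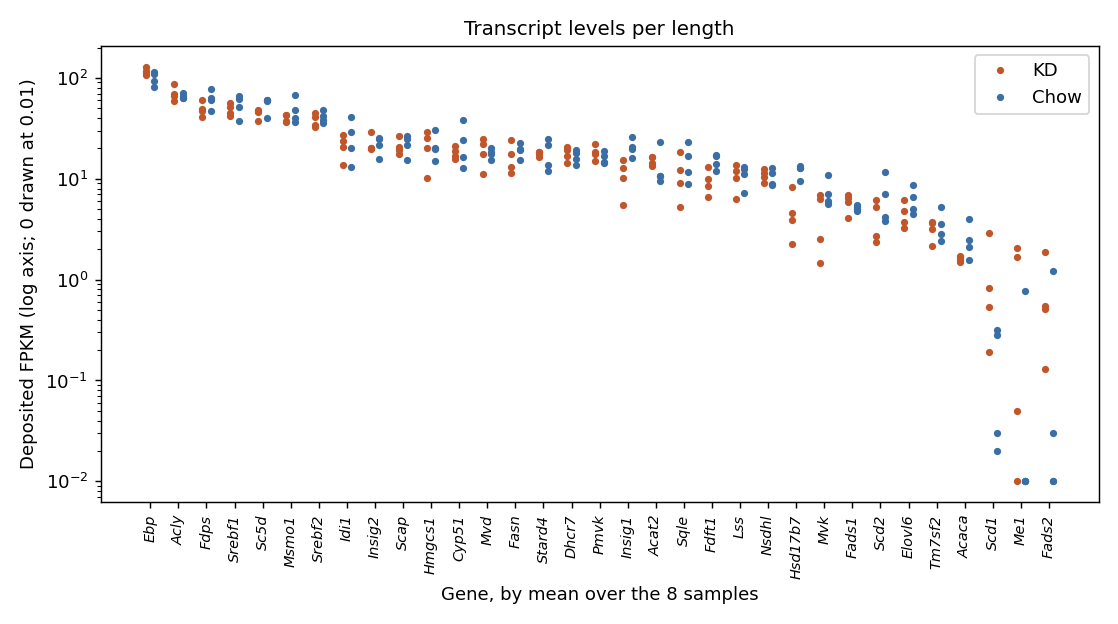
Deposited FPKM (y axis, log scale, 0 drawn at 0.01) of the 33 member genes (x axis, in order of their mean over the 8 libraries), with a point for each KD library (left of each gene) and each chow library (right). Ebp leads with a mean of 115 FPKM in KD samples and 99.0 FPKM in chow samples, and Scd1, Me1 and Fads2 have a mean below 1 FPKM over the 8 libraries.

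The neighbouring parts of the pathway gave no gene past the adjusted threshold either, by edgeR's quasi-likelihood test. Among 11 tested genes that cleave SREBPs, sense sterols or turn over the synthesis enzymes, the median log2 fold change was -0.0099. Erlin1, which takes part in the turnover of sterol-regulated proteins, averaged 9.42 ± 3.76 CPM in KD samples and 13.2 ± 6.43 CPM in chow samples, with a log2 fold change of -0.49 (SE 0.41) and an adjusted p of 0.83. Among 14 genes that use farnesyl diphosphate for prenyl groups, ubiquinone and dolichol, the median was -0.07. Rabggta, a subunit of the enzyme that prenylates Rab proteins, stood at 58.9, 48.4, 50.7 and 44.7 CPM in KD replicates 1 to 4, against 36.6, 40.2, 35.9 and 42.3 CPM in chow replicates 1 to 4. All KD libraries were above all chow libraries, as in 3.30% of all tested genes, and the log2 fold change was 0.39 (SE 0.13) with an adjusted p of 0.396. The farnesyltransferase subunits followed, Fnta with a log2 fold change of 0.19 and Fntb with -0.43.

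Among 16 tested genes of sterol sensing by LXR receptors, export, storage and transport, the median log2 fold change was 0.07, and 3 had an unadjusted p under 0.05 with a lower level in KD samples and 1 with a higher level, where 4.16% of all tested genes were lower and 4.48% higher. Abcg1, a sterol exporter and LXR target, stood at 29.4, 20.8, 25.7 and 18.8 CPM in KD replicates 1 to 4, against 36.9, 47.5, 40.2 and 27.6 CPM in chow replicates 1 to 4. The diets overlapped only through KD replicate 1 and chow replicate 4, and the log2 fold change was -0.69 (SE 0.21) with an adjusted p of 0.32 by edgeR. Mylip, an LXR target whose product marks lipoprotein receptors for breakdown, averaged 26.3 ± 4.01 CPM in KD samples and 39.3 ± 6.70 CPM in chow samples. Its diets did not overlap, as in the 2.75% of all tested genes that lay wholly lower in KD samples, and its log2 fold change was -0.58 (SE 0.18), with an adjusted p of 0.321. Smpdl3a, a secreted phosphodiesterase known as an LXR target in human cells, averaged 382 ± 30.4 CPM in KD samples and 314 ± 28.7 CPM in chow samples, with an adjusted p of 0.34. Abca1, the exporter paired with Abcg1, was chosen after its values were seen: it averaged 3.58 ± 2.25 CPM in KD samples and 12.3 ± 9.09 CPM in chow samples, also without overlap, with an adjusted p of 0.544 by edgeR. It stood at 7.36, 25.8, 7.04 and 8.78 CPM in chow replicates 1 to 4, so replicate 2 raised the chow mean. Of the 16 tested genes of this list, 6 had a negative log2 fold change and 10 a positive one, among them Lpcat3 (0.10) and Nr1h2 (0.06).

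Among 18 tested genes of fatty acid synthesis and elongation outside the members, the median log2 fold change was 0.04. Elovl5, the elongase of polyunsaturated chains, stood at 154, 167, 179 and 166 CPM in KD replicates 1 to 4, against 186, 186, 231 and 197 CPM in chow replicates 1 to 4. All KD libraries lay below all chow libraries, as in 2.75% of all tested genes, with a log2 fold change of -0.26 (SE 0.09) and an adjusted p of 0.435 by edgeR. Aacs, which makes acetoacetyl-CoA from the ketone body acetoacetate for lipid synthesis, averaged 46.0 ± 5.90 CPM in KD samples and 56.8 ± 11.04 CPM in chow samples. Its log2 fold change was -0.30 (SE 0.17), with an adjusted p of 0.673. Mcat, the mitochondrial malonyl transferase, had a log2 fold change of 0.50 (SE 0.27).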

How the data were processed

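The authors deposited estimated counts per gene and FPKM values for the 8 samples. The submitters' processing notes list BWA, TopHat2, RSEM and DESeq2 with the build GRCm38 but give no version and no role for any tool, and strand use is not stated in the sources used. Per the labels' protocols, the RNA was prepared with RLT buffer and sequenced from standard Illumina libraries. Single-cell data named in the series' design text were not analysed here.

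The deposited estimated counts were rounded to whole numbers and fitted with edgeR 4.0.16 in R 4.3.3 (TMM scaling, filterByExpr with a minimum count of 10 and total of 15, glmQLFit with robust estimation, glmQLFTest, diet as the only term). Of 47729 genes, 13397 were tested, and p-values were adjusted over all of them by the Benjamini-Hochberg method at a threshold of 0.05. The fit was tried on counts simulated from its own dispersions, with each gene drawn independently. That trial does not cover shifts shared by many genes of a library. Estimated counts share reads out between similar genes: 15 members had a count that was not whole in at least 1 library. CPM divides a count by the library size after scaling with the TMM factor. A gene with 0 counts is limited to 3 counts of the library. Alternatives were RLE factors, library size only, no filter on low counts, at least 5 CPM in 4 samples, a replicate block, the mean stromal marker level as a covariate, DESeq2 1.42.0, limma 3.58.1 on deposited FPKM as log2(FPKM + 1) or log2(FPKM + 0.1), and each library left out. Positions come from GENCODE M21 and promoter windows from RefSeq, both on GRCm38. The members, pathway lists and marker lists were chosen with earlier results of these data known. All members are named, and of each neighbouring list the genes past the threshold and the 3 with the smallest p. Some genes that this rule names are not reported here. Of the marker lists, those with the highest levels are named where a result turns on them. Trdc, Adipoq and Plin1 were added as defining markers.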

Additional observations from a re-analysis of the deposited data

Results flagged for a closer look

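In 5 of the 66 groups of 4 samples formed by the 33 member genes, 1 library lay far from the other 3, with a gap of 0.884 to 1 of the whole range of the group. Chance alone gives this in about 1 of 20 groups of independent, normally spread values. The groups here share the same libraries, and Me1 and Fads2 were at or near 0 in most chow libraries. The number of groups found can therefore not be judged against that rate. All 5 were chow groups. Scap had 53.87 CPM in chow replicate 1, against 82.19 to 83.9 CPM in the other chow libraries. Acat2 had 50.46 CPM in chow replicate 3, against 20.16 to 23.68 CPM. Sc5d had 87.05 CPM in chow replicate 1, against at least 126.4 CPM. Me1 had 2.509 CPM in chow replicate 1 and was at 0 in the other chow libraries. Fads2 had 1.788 CPM in chow replicate 4, against 0 to 0.03745 CPM in the others.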

How the results depend on the processing

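The number of genes higher in KD samples was 44, and 11 with a replicate block, 14 with the stromal covariate, 160 with DESeq2, 82 and 79 with limma on log2(FPKM + 1) and log2(FPKM + 0.1), 4 without KD replicates 3 and 4, and 12 to 32 with each library left out. The number lower was 24, and under the same settings 1, 1, 132, 44, 40, 0 and 0 to 13, and 45 with the 5 CPM filter. The number of members called was 0, and 1 with DESeq2 and with limma on log2(FPKM + 1). That gene was Hsd17b7, with adjusted p between 0.00507 and 0.694 over all alternatives and log2 fold changes between -1.84 and -1.20 with each library left out. The number of members at an unadjusted p under 0.05 was 6, 1 without KD replicates 3 and 4, and 3 to 6 with each library left out. The share of all genes at that level was not computed for these alternatives. The median of the regulators was -0.40 with the stromal covariate. The median of the sterol arm was -0.30 to 0.0018 with each library left out, 0.0018 without chow replicate 3, and -0.093 and -0.11 with limma on log2(FPKM + 1) and log2(FPKM + 0.1). That of the fatty acid arm was -0.32 with the 5 CPM filter, -0.080 with limma on log2(FPKM + 1), 0.015 without KD replicates 3 and 4, and -0.19 to 0.00021 with each library left out, and that of the regulators -0.19 to -0.0021 with each library left out.

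Over the 32 tested members, 40 of 573 fold changes under the alternatives changed sign, in 13 genes. With the stromal covariate they were -0.16 for Acly, -0.0029 for Dhcr7, -0.23 for Fads1, -0.48 for Fads2, -0.53 for Mvd and -0.041 for Nsdhl. With limma on log2(FPKM + 1) and log2(FPKM + 0.1) they were 0.032 and 0.034 for Insig2, -0.070 and -0.078 for Lss, and 0.028 and 0.033 for Stard4. Without KD replicates 3 and 4 they were -0.019 for Mvd, 0.042 for Scap and 0.029 for Srebf1, and with the replicate block 0.0013 for Scap. With each library left out the ranges were -0.051 to 0.15 for Acly, -0.048 to 0.11 for Dhcr7, -0.21 to 0.22 for Hmgcs1, -0.53 to 0.025 for Idi1, -0.18 to 0.15 for Insig2, -0.034 to 0.21 for Lss, -0.093 to 0.25 for Mvd, -0.029 to 0.17 for Nsdhl, -0.14 to 0.065 for Scap, -0.20 to 0.042 for Srebf1 and -0.27 to 0.10 for Stard4. The cause of these changes was not tested. Hsd17b7, Insig1, Fdft1, Sc5d, Acaca and Scd1 kept their sign under every alternative that gave a value. Me1 had no value except without the filter, and Scd1, Fads2 and Tm7sf2 had none with the 5 CPM filter because they did not pass it.

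The replicate numbers gave no sign of pairing. The deviations of same-numbered libraries from their diet means correlated between -0.114 and 0.067, and no library correlated best with its own number. The labels do not say whether the samples were paired, and low correlations do not exclude it. Depth limited Me1 and Fads2 in the libraries where they had few or no counts, and Scd1 in chow replicates 1 and 3, since 3 counts correspond to between 0.0947 and 0.152 CPM.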

Other observations

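The transcript length implied by a member's count, its FPKM and the library total varied by more than 1.3-fold between libraries in 9 of the 30 members for which it could be computed. For Lss it ran between 1.999 and 2.91 kb in KD samples and between 1.71 and 2.27 kb in chow samples, and for Insig2 between 1.43 and 2.01 kb in KD samples and between 1.55 and 2.07 kb in chow samples. Cyp51 had 3.07 ± 0.46 kb in KD samples and 3.52 ± 0.09 kb in chow samples (SD, n = 4 each). Srebf2, Hmgcs1 and Mvd had nearly the same implied length in all libraries, with Srebf2 at 4.91 kb. Which transcripts of a gene were counted was not tested.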
